A study of Mus musculus with 18 samples.

Results

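The 4 mature miRNAs described here are both arms of miR-155 (miR-155-5p and miR-155-3p) and the leading arms of the miR-146 pair (miR-146a-5p and miR-146b-5p). They were taken by name from a normalized miRNA table and make up 4 of its 1900 mature names and 4 of the 481 that were abundant enough to be tested. Small RNA was sequenced from NIH 3T3 TetON cells, an immortalized mouse embryonic fibroblast line that expresses a transgene when doxycycline is added. All cells had been given 1 µg/ml doxycycline for 48 h. SUN1L cells expressed SS-HA-SUN1L-KDEL, the lumenal domain of SUN1 held in the endoplasmic reticulum, which disrupts the LINC complex, the protein bridge between nucleus and cytoskeleton. KDEL control cells expressed SS-GFP-KDEL in its place. Both are stable lines made by retroviral transduction and puromycin selection, and the KDEL line had also been sorted for fluorescence. The 6 groups of 3 libraries were SUN1L cells on a 308 kPa (stiff) hydrogel, KDEL cells on 308 kPa with 10 µM blebbistatin, which inhibits non-muscle myosin II, KDEL cells on 308 kPa with 25 µM Y27632, untreated KDEL cells on 308 kPa, SUN1L cells on a 1 kPa (soft) hydrogel, and KDEL cells on 1 kPa. Both inhibitors were present for 48 h. The methods of the study call the 3 libraries of a condition biological replicates, and whether these were separate passages or days is not given in the sources used here, so the p-values cover only the spread among these libraries.

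A miRNA pairs with target mRNAs mainly through its seed, bases 2 to 8 from its 5′ end, and lowers their stability and translation. Both families are best known from innate immune cells, where NF-κB signaling induces the genes of miR-155 and miR-146a. miR-155-5p represses several brakes on inflammatory signaling, such as Socs1 and Inpp5d (SHIP1), whereas miR-146a represses the adaptors Irak1 and Traf6 and so dampens the signal that induced it. miR-146b shares the miR-146a seed and comes from another gene. Fibroblasts also express members of both families.

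The mature sequences are printed because seed and length set which members can share targets or reads, and the seeds are in capitals (RefSeq, GRCm38.p6, all 4 names matched).
mmu-miR-155-5p: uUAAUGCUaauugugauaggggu
mmu-miR-155-3p: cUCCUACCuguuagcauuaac
mmu-miR-146a-5p: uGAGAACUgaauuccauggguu
mmu-miR-146b-5p: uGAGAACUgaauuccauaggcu
The miR-155 arms are cut from 1 hairpin, shown whole with both arms in capitals.
Mir155 hairpin: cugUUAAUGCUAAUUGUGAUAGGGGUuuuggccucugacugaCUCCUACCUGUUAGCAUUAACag
miR-155-5p lies at chr16:84714143-84714165 and miR-155-3p at chr16:84714182-84714202, both on the plus strand within Mir155hg, a long non-coding RNA gene that hosts the hairpin. miR-146a-5p lies at chr11:43374435-43374456 on the minus strand, where RefSeq places no gene other than the miRNA's own. miR-146b-5p lies at chr19:46342790-46342811 on the plus strand, within the span of the non-coding gene Gm36493. The arms of miR-155 have different seeds, and neither seed occurs in any other of the 1738 mature sequences in the RefSeq table. miR-146a-5p and miR-146b-5p have the same seed, found in no other entry, and are identical at 20 of 22 bases. They differ by G18A and U21C (positions from the 5′ end, the miR-146a base first), so a read that ends before the first of these positions matches both. How such reads were assigned is not given in the sources used here, and the split between miR-146a-5p and miR-146b-5p is uncertain to that extent.

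The table gives a normalized signal with a floor of 1. Low values above the floor were whole multiples of the worth of 1 read, which ranged between 0.666 and 1.55 over the libraries. High values were not checked. With all values rounded to whole reads, the implied depth ranged between 1361360 and 8485822 reads. Blebbistatin library 3 stood apart. It had the lowest depth, a median signal over the tested miRNAs of 15.5 against 39.1 to 212 in the other 17 libraries, and a Spearman correlation with its own group that averaged 0.779, so each test is given with and without it. The whole distribution also moved with substrate in SUN1L cells, where the median log2 fold change of all tested miRNAs on 308 kPa against 1 kPa was 1.34, and a scaling that removes such shifts (median of ratios) is therefore given beside the deposited scale. All 6 fibroblast markers, among them miR-21a-5p and miR-199a-3p, were above the floor in all 18 libraries. So were the endothelial marker miR-126a-3p (59.3 to 1169) and the epithelial marker miR-205-5p (2.37 to 98.1). Endothelial miR-126a-5p and epithelial miR-200c-3p were at the floor in 1 library each, and epithelial miR-141-3p in 12. Being above the floor thus did not set the fibroblast markers apart. Their median signals were higher, between 7989 (miR-145a-5p) and 1.25e+06 (miR-21a-5p), against 642 for miR-126a-3p and 36.6 for miR-205-5p. The lowest single value among them, 234 for miR-145a-5p, lay within the range of miR-126a-3p. Because miR-155 and miR-146a are abundant in blood cells, 6 blood markers are given beside them. On 308 kPa their summed signal ranged between 21.6 and 34.6 in SUN1L cells, 2.58 and 23.8 with blebbistatin, 23.0 and 27.4 with Y27632, and 16.5 and 23.3 in untreated KDEL cells. On 1 kPa it ranged between 10.7 and 53.9 in SUN1L and 5.39 and 10.6 in KDEL cells. Of the 6, miR-150-5p of lymphocytes was above the floor in all 18 libraries (2.58 to 25.0) and the erythroid miR-451a reached 49.9. The myeloid marker miR-223-3p was at the floor in 11 libraries and reached at most 3.11, miR-142-3p reached at most 4.66, miR-142-5p 3.18 and miR-144-3p 2.72. Fewer cells of a type and less RNA per cell cannot be told apart in such bulk libraries, and the part of blood-derived RNA in the results was not tested.

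miR-146b-5p was the most abundant of the 4, with a mean signal over the 18 libraries of 13299.9 and place 58 among all names. miR-155-5p followed with a mean of 4353 and place 87, miR-155-3p with 137 and place 242, and miR-146a-5p with 98.1 and place 266. Mature miRNAs are of nearly equal length, so these levels were not corrected for length. How efficiently each sequence was ligated to adapters and amplified was not measured, so the order is one of signal. The other arms were scarce: miR-146b-3p reached at most 69.1, and miR-146a-3p was at the floor in all 18 libraries.

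miR-155-5p, the functional arm of the family, had signals on 308 kPa of 6579, 4704 and 5983 in SUN1L cells, of 5947, 5999 and 355 with blebbistatin, of 5575, 6370.0 and 7203 with Y27632, and of 4092, 6200.5 and 5324 in untreated KDEL cells. On 1 kPa it had 2461, 822 and 1947 in SUN1L cells and 2849, 2369.7 and 3570.2 in KDEL cells. In each line the values of untreated cells on 308 kPa lay above those on 1 kPa with no overlap on the deposited scale, while the ranges of the lines overlapped on either substrate. On the median of ratios scale KDEL cells overlapped between substrates (3142 to 4676 on 308 kPa, against 2790.0 to 3633 on 1 kPa), and SUN1L cells did not. The first and second blebbistatin libraries and all 3 Y27632 libraries were within or above the range of untreated KDEL cells on 308 kPa, and blebbistatin library 3 was the lowest of all 18. The groups ranked by mean as Y27632 (6383 ± 814, SD, n = 3 as in all groups), SUN1L on 308 kPa (5755 ± 958), untreated KDEL on 308 kPa (5206 ± 1059), blebbistatin (4100.3 ± 3244, or 5973 with library 3 left out), KDEL on 1 kPa (2929.6 ± 604) and SUN1L on 1 kPa (1743 ± 838). Neighbors in this order overlapped throughout, and with blebbistatin library 3 left out the only gap between neighbors was the one between 308 kPa and 1 kPa.

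miR-155-3p, the passenger arm, had 208, 139 and 155 in SUN1L cells, 177, 221 and 9.03 with blebbistatin, 177, 168 and 181 with Y27632, and 202, 190.4 and 168 in untreated KDEL cells on 308 kPa. It had 76.7, 30.8 and 83.2 in SUN1L cells and 106, 77.6 and 106 in KDEL cells on 1 kPa. The pattern of the 5p arm recurred on the deposited scale, with both untreated lines higher on 308 kPa than on 1 kPa without overlap. It did not recur on the median of ratios scale. There the 3p arm overlapped between substrates in SUN1L cells, and in KDEL cells it did not (135 to 155 on 308 kPa, against 91.4 to 117 on 1 kPa). On the deposited scale the values of the first and second blebbistatin libraries and of the Y27632 libraries overlapped those of untreated KDEL cells. The 3p arm made up between 2.45% and 4.70% of the reads of both arms over all 18 libraries. The highest share, 4.70% (95% Wilson interval 3.97% to 5.56%, counting error only), was in untreated KDEL library 1 on 308 kPa, and that of blebbistatin library 3, 2.48% (1.21% to 5.03%), lay inside the range of the other libraries although both its arms were low. The ratio of 5p to 3p ranged between 20.3 and 39.8 with a median of 31.9.

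miR-146a-5p, the scarcest member, had 201, 195 and 188 in SUN1L cells on 308 kPa, 6.00, 62.7 and 1 with blebbistatin and 143, 95.05 and 282 with Y27632, against 60.6, 74.0 and 58.6 in untreated KDEL cells. The SUN1L libraries were close together, and all of them and all Y27632 libraries were above the untreated KDEL libraries. The first blebbistatin value rests on 9 reads, the second was within the untreated range, and blebbistatin library 3 had no read. On 1 kPa miR-146a-5p had 96.4, 35.6 and 41.3 in SUN1L cells and 126, 39.4 and 62.4 in KDEL cells, which overlapped. By mean the order was SUN1L on 308 kPa (194 ± 6.90), Y27632 (173 ± 97.1), KDEL on 1 kPa (75.8 ± 44.7), untreated KDEL on 308 kPa (64.4 ± 8.40), SUN1L on 1 kPa (57.8 ± 33.6) and blebbistatin (23.2 ± 34.3), and all neighbors overlapped.

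miR-146b-5p, with the same seed and a far higher level, followed another order. On 308 kPa it had 12767, 13044 and 16568 in SUN1L cells, 5095, 5112 and 5453 with blebbistatin and 13795, 7861 and 12147 with Y27632, against 12617, 8006 and 9519 in untreated KDEL cells. On the deposited scale SUN1L and untreated KDEL libraries did not overlap, the blebbistatin values were the lowest 3 of the 18 libraries, and the Y27632 values spanned the untreated ones. On 1 kPa it had 18311, 18064 and 34869 in SUN1L cells, against 17189, 11771 and 17212 in KDEL cells, with no overlap. SUN1L cells were thus the higher line on both substrates, and within SUN1L cells all libraries on 308 kPa were below all on 1 kPa. The order by mean was SUN1L on 1 kPa (23748 ± 9632), KDEL on 1 kPa (15391 ± 3135), SUN1L on 308 kPa (14126 ± 2119), Y27632 (11268 ± 3063), untreated KDEL on 308 kPa (10047 ± 2351) and blebbistatin (5220.2 ± 202). Only the first and the last step of this order separated the libraries of neighboring groups.

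**Figure D1:**
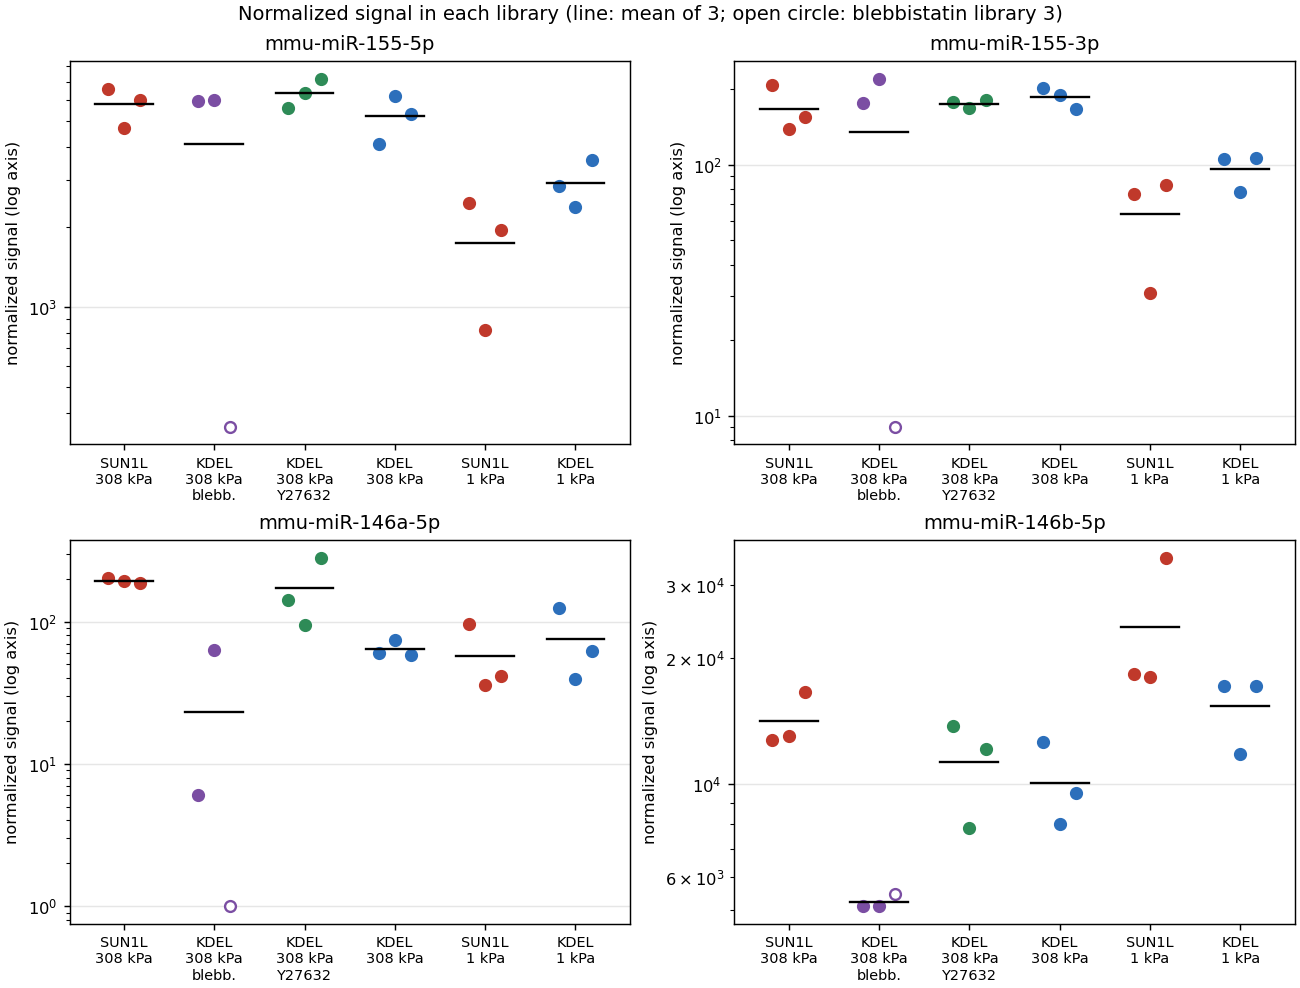
Normalized signal (log axis) of the 4 miRNAs in each library of the 6 groups, with the mean of 3 libraries as a line and blebbistatin library 3 as an open circle. Both miR-155 arms are higher on 308 kPa than on 1 kPa in SUN1L and in KDEL cells on this scale, miR-146a-5p sits at 188 to 201 in SUN1L cells on 308 kPa, and miR-146b-5p is highest in SUN1L cells on 1 kPa and lowest with blebbistatin.

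Substrate stiffness was compared within each line, first in SUN1L cells. On 308 kPa against 1 kPa, miR-155-5p had a log2 fold change of 1.85 ± 0.80 (SE), with 1.48 ± 0.84 for miR-155-3p, 1.88 ± 0.90 for miR-146a-5p and -0.69 ± 0.35 for miR-146b-5p, and for each of the 4 the groups did not overlap on the deposited scale. Overlap was not counted over all tested miRNAs, here or in the other comparisons, so how common its absence was is not known. On the median of ratios scale miR-155-3p (105 to 145 on 308 kPa, against 79.3 to 115 on 1 kPa) and miR-146a-5p (128 to 160.0, against 56.4 to 145) overlapped, while miR-155-5p and miR-146b-5p did not. In the limma fit of all 18 libraries no member was called at an adjusted p under 0.05 (adjusted p = 0.111, 0.164, 0.124 and 0.137 in that order), where 4.16% of tested miRNAs were. With blebbistatin library 3 left out all 4 were called (adjusted p = 0.000116, 0.000796, 0.012 and 0.0494), as were 69.8% of tested miRNAs, 322 of them higher and 13 lower. On the deposited scale a call was thus common in this comparison, and most calls were in the direction opposite to that of miR-146b-5p. The median of all tested miRNAs was itself 1.34. Relative to it miR-155-5p stood at 0.51, miR-155-3p at 0.15, miR-146a-5p at 0.54 and miR-146b-5p at -2.03. With median of ratios scaling and library 3 left out, miR-155-5p was higher by 0.54 ± 0.21 (adjusted p = 0.039), miR-155-3p by 0.19 ± 0.23 (0.494) and miR-146a-5p by 0.59 ± 0.58 (0.409), while miR-146b-5p fell by 2.00 ± 0.26 (SE; adjusted p = 1.25e-05), where 50.6% of tested miRNAs were called, 137 higher and 106 lower, so lower calls were common on that scale.

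In KDEL cells the estimates of the same comparison were closer to 0. miR-155-5p was higher on 308 kPa by 0.83 ± 0.80 and miR-155-3p by 0.95 ± 0.84 on the log2 scale, both without overlap on the deposited scale, miR-146a-5p differed by -0.08 ± 0.90 and miR-146b-5p by -0.62 ± 0.35. None was called by limma (adjusted p between 0.769 and 0.957), as 0% of tested miRNAs were, with 13 at an unadjusted p under 0.05. With blebbistatin library 3 left out none was called either (adjusted p = 0.0972, 0.0624, 0.930 and 0.149), against 7.29% of tested miRNAs, and the median of all of them was 0.54. With median of ratios scaling in addition, miR-146b-5p fell by 1.17 ± 0.26 (SE; adjusted p = 0.0279), where 2.71% of tested miRNAs were called, and miR-155-5p and miR-155-3p had log2 fold changes of 0.28 ± 0.21 and 0.41 ± 0.23 (adjusted p = 0.454 and 0.284). Whether the substrate effect differed between the lines was tested as an interaction. Its log2 estimates were 1.02 ± 1.14 for miR-155-5p, 0.53 ± 1.18 for miR-155-3p, 1.95 ± 1.28 for miR-146a-5p and -0.07 ± 0.50 for miR-146b-5p, none called (adjusted p between 0.783 and 0.930), where 0.208% of tested miRNAs were. Without blebbistatin library 3 the smallest adjusted p among them was 0.133, for miR-146a-5p, with 0.208% of tested miRNAs called. In the 12 untreated libraries with a covariate for runs of library numbers the miR-146a-5p interaction was called (1.95 ± 0.51, adjusted p = 0.0300, with 68 miRNAs called in all), and with median of ratios scaling in addition it was not (1.17 ± 0.46, adjusted p = 0.140, none called by limma and 126 at an unadjusted p under 0.05).

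SUN1L cells, in which the LINC complex is disrupted, were compared with KDEL cells on each substrate. These are separate stable lines, and only the KDEL line was sorted for fluorescence. LINC disruption and other differences between the lines therefore cannot be told apart. On 1 kPa the log2 fold change was -0.87 ± 0.80 for miR-155-5p, -0.70 ± 0.84 for miR-155-3p, -0.37 ± 0.90 for miR-146a-5p and 0.58 ± 0.35 for miR-146b-5p, and only for miR-146b-5p did the groups not overlap. None was called (adjusted p between 0.431 and 0.792), where 2.7% of tested miRNAs were. With blebbistatin library 3 left out miR-155-5p was called lower (adjusted p = 0.0416), as 44% of tested miRNAs were called, 179 lower and 32 higher around a median of -0.69. With median of ratios scaling in addition the miR-155-5p difference was -0.18 ± 0.21 (adjusted p = 0.517, 95% interval -0.62 to 0.26). miR-146b-5p then was higher in SUN1L cells by 1.27 ± 0.26 (adjusted p = 0.00094), where 38.5% of tested miRNAs were called, 100 lower and 85 higher, and miR-146a-5p differed by 0.31 ± 0.58.

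On 308 kPa the miR-155 arms differed little between the lines, at 0.15 ± 0.80 for miR-155-5p and -0.17 ± 0.84 for miR-155-3p (95% intervals -1.56 to 1.87 and -1.96 to 1.61). With blebbistatin library 3 left out the intervals narrowed to -0.55 to 0.85 and -0.87 to 0.52. Both miR-146 members were higher in SUN1L cells without overlap on the deposited scale, miR-146a-5p by 1.59 ± 0.90 and miR-146b-5p by 0.51 ± 0.35. Neither was called in the limma fit of all libraries (adjusted p = 1.00 for both), where 3.12% of tested miRNAs were, nor with library 3 left out (adjusted p = 0.260 and 0.623), where 3.75% were. The median of all tested miRNAs was 0.08, and median of ratios scaling without library 3 gave 1.52 ± 0.58 and 0.44 ± 0.26. On that scale miR-146a-5p still did not overlap, while miR-146b-5p did (8905 to 11265 in SUN1L cells, against 6038 to 9688 in untreated KDEL cells). The call of miR-146a-5p depended on which libraries set the spread: with only SUN1L and KDEL cells on 308 kPa in the fit its adjusted p was 0.00172, and over all alternatives it ranged between 0.00172 and 1.00 (called in 4 of 30).

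**Figure D2:**
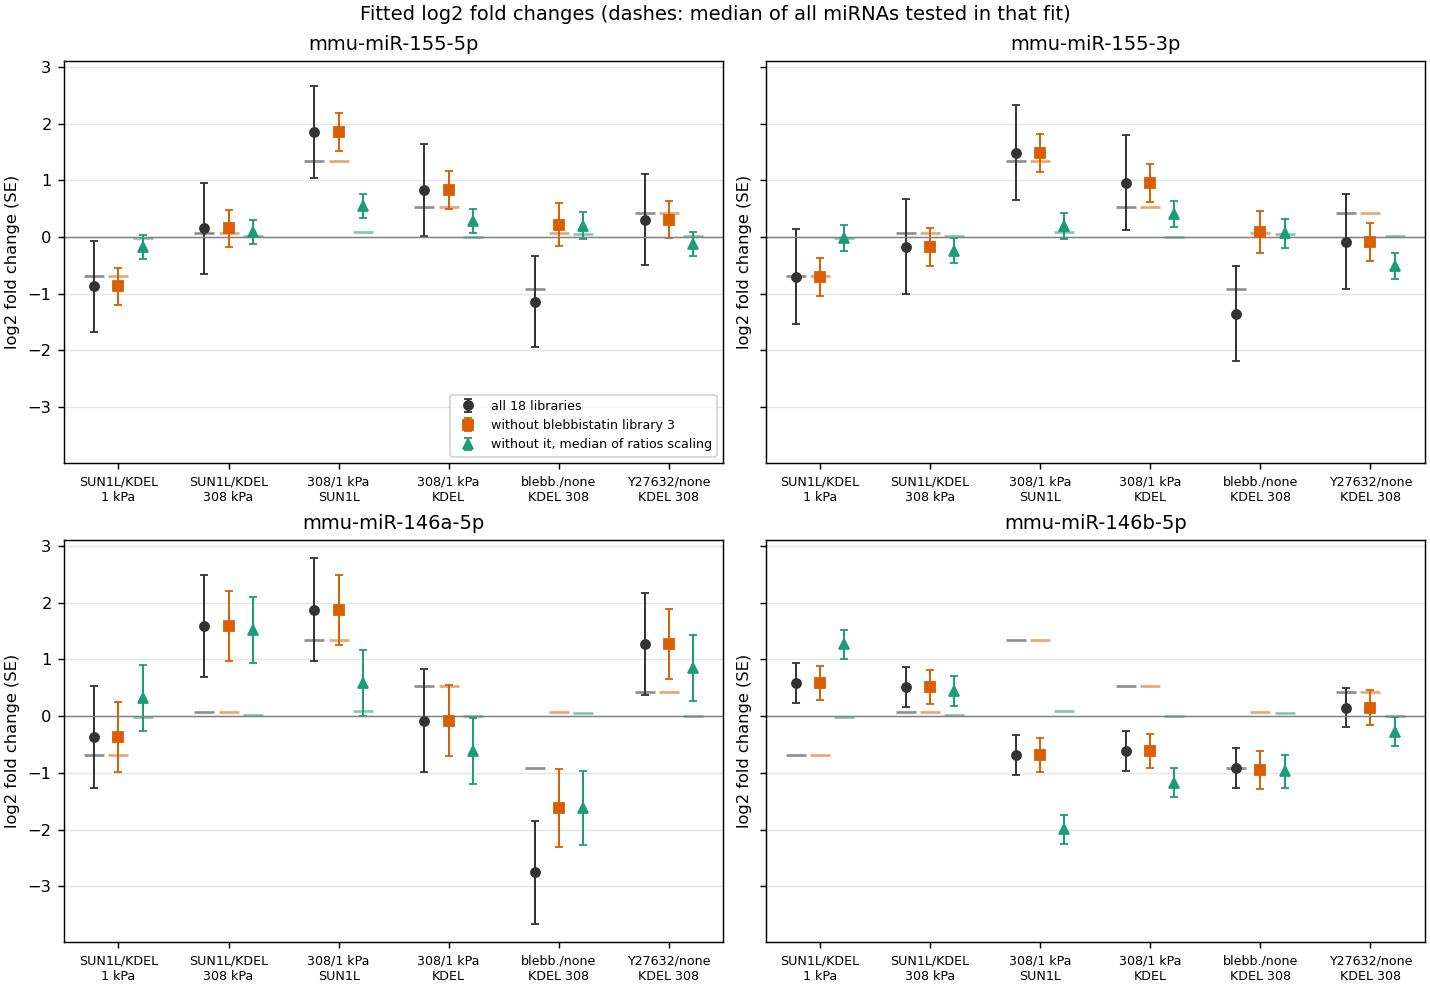
Log2 fold changes (± SE) of the 4 miRNAs in 6 comparisons from the fit of all 18 libraries (circles), without blebbistatin library 3 (squares) and without it on the median of ratios scale (triangles), with the median of all tested miRNAs in each fit as a dash. In SUN1L cells on 308 kPa against 1 kPa the median dash is at 1.34 and miR-146b-5p lies far below it at -0.69, while miR-155-3p lies close to it at 1.48.

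Blebbistatin and Y27632 were set against untreated KDEL cells on 308 kPa to ask which miRNAs depend on myosin tension. With blebbistatin the log2 fold change was -1.14 ± 0.80 for miR-155-5p and -1.35 ± 0.84 for miR-155-3p, which without library 3 became 0.22 ± 0.37 and 0.09 ± 0.37, so their sign changed with that library. miR-146a-5p differed by -2.76 ± 0.90 and by -1.62 ± 0.69 without library 3. miR-146b-5p differed by -0.92 ± 0.35 and by -0.95 ± 0.34 without library 3, lower in 3 of 3 libraries on the deposited scale. None was called with or without library 3 (adjusted p = 0.348 for all 4 with it, 0.916 for both miR-146 members without it). Of tested miRNAs 0% were called in either fit, with 43 and 23 at an unadjusted p under 0.05. The median log2 fold change of all tested miRNAs was -0.92 with library 3 and 0.07 without it. Leaving out blebbistatin library 2 instead gave miR-146a-5p a called value of -4.12, from the libraries with 9 reads and none. Blebbistatin library 3 was not low in miR-146b-5p per read: it had 4227 of its 1361360 reads there, against 7644 of 7504623 in blebbistatin library 1. On the median of ratios scale with all libraries the miR-146b-5p difference was 0.09. With library 3 left out it was -0.97 ± 0.29 on that scale, and the miR-146a-5p difference was -1.62 ± 0.65 (limma, adjusted p = 0.378 and 0.591), with no tested miRNA called.

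With Y27632 the log2 fold change was 0.31 ± 0.80 for miR-155-5p, -0.09 ± 0.84 for miR-155-3p, 1.28 ± 0.90 for miR-146a-5p and 0.15 ± 0.35 for miR-146b-5p. On the deposited scale only miR-146a-5p did not overlap the untreated values, and it was not called (adjusted p = 0.943, and 0.385 without blebbistatin library 3). The other members were not called in either fit. Of tested miRNAs 0% were called with library 3 and 0% without it, with 9 and 62 at an unadjusted p under 0.05, and their median was 0.43. With median of ratios scaling and library 3 left out the difference was 0.85 ± 0.58 for miR-146a-5p and -0.51 ± 0.23 for miR-155-3p (adjusted p = 0.943 and 0.580). On the median of ratios scale miR-155-3p also did not overlap, and was lower with Y27632 (98.3 to 111, against 135 to 155 in untreated KDEL cells). Both inhibitor comparisons and that of the lines on 308 kPa used the same 3 untreated KDEL libraries.

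Ratios within a library do not depend on its scaling, and are given as descriptions. miR-155-5p over miR-146b-5p was 0.515, 0.361 and 0.361 in SUN1L cells on 308 kPa, against 0.134, 0.0455 and 0.0558 on 1 kPa. It was 1.17, 1.17 and 0.0651 with blebbistatin and 0.404, 0.810 and 0.593 with Y27632. In untreated KDEL cells it was 0.324, 0.775 and 0.559 on 308 kPa, against 0.166, 0.201 and 0.207 on 1 kPa. The ratio was thus higher on 308 kPa in both untreated lines without overlap, and on 1 kPa it was lower in all SUN1L than in all KDEL libraries. The first and second blebbistatin libraries were the only ones in which miR-155-5p exceeded miR-146b-5p, and blebbistatin library 3 was in the range of SUN1L cells on 1 kPa.

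The share of miR-146a-5p in the reads of both miR-146 members was 1.55%, 1.47% and 1.12% in SUN1L cells and 1.02%, 1.20% and 2.27% with Y27632 on 308 kPa, against 0.478%, 0.916% and 0.612% in untreated KDEL cells, with every library of the first and second of these groups above the untreated ones. With blebbistatin it was 0.118% (95% Wilson interval 0.0619% to 0.223%), 1.21% (0.974% to 1.51%) and 0 of 4227 reads, which allows a share of up to 0.0710%. These limits cover counting error only, and the interval of blebbistatin library 2 lay above those of the other two, so the spread of this group was larger than counting error. On 1 kPa the share was 0.524%, 0.197% and 0.118% in SUN1L cells and 0.726%, 0.333% and 0.361% in KDEL cells. In SUN1L cells the share was higher on 308 kPa than on 1 kPa without overlap.

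**Figure D3:**
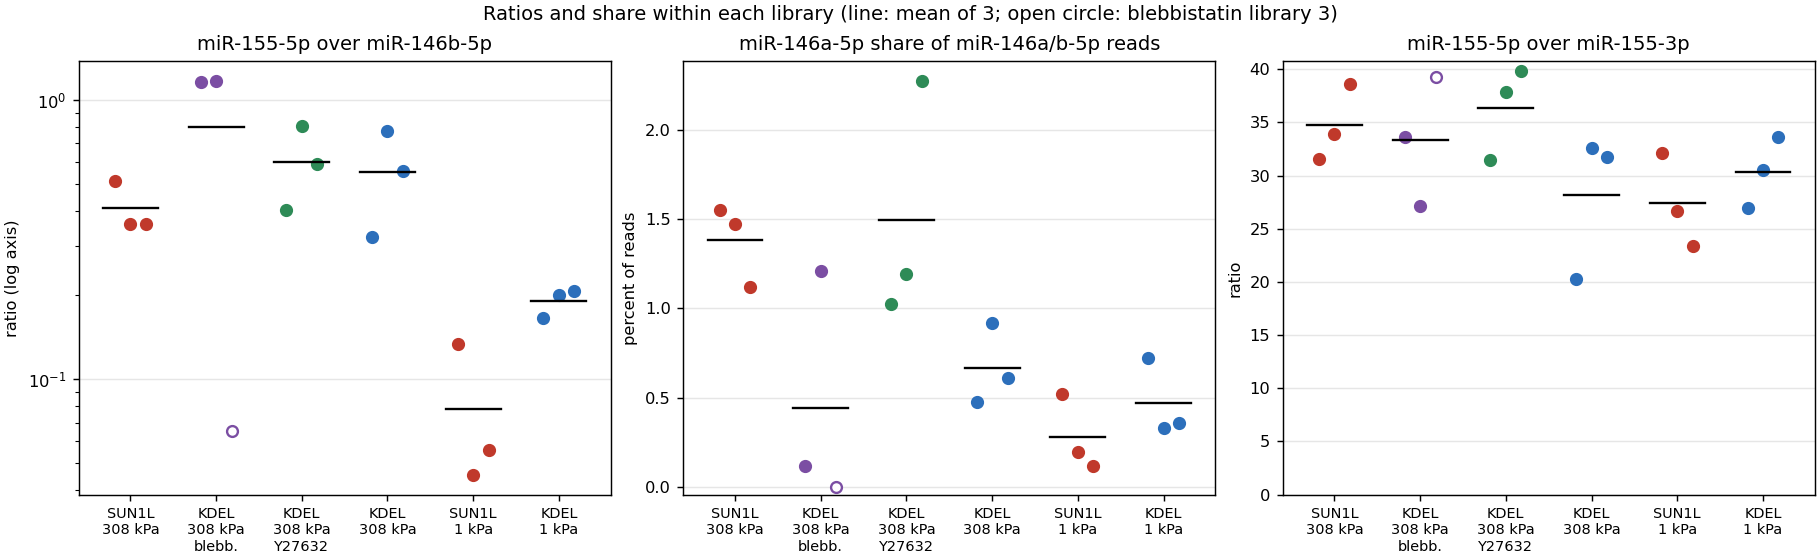
Within-library ratio of miR-155-5p to miR-146b-5p (left, log axis), miR-146a-5p in percent of the reads of both miR-146 members (middle) and ratio of the miR-155 arms (right), with group means as lines and blebbistatin library 3 as an open circle. The left ratio is above 0.32 in all SUN1L and untreated KDEL libraries on 308 kPa and at most 0.207 on 1 kPa, the middle share is 1.12% to 1.55% in SUN1L cells on 308 kPa, and the arm ratio stays between 20.3 and 39.8.

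The miRNAs whose profile over the 18 libraries was most like that of each member were found by Spearman correlation among all tested miRNAs, as a description, since all points share the scale of their library. For miR-155-5p these were miR-193a-5p (Spearman correlation 0.981), miR-1983 (0.973) and miR-23a-5p (0.965), in the same order over 17 libraries without blebbistatin library 3. On the median of ratios scale miR-221-3p came first (0.897), followed by miR-193a-5p and miR-23a-5p. For miR-155-3p they were miR-18a-5p (0.920), miR-182-3p and miR-92a-1-5p (0.893 each). For miR-146a-5p they were miR-193b-5p (0.818), miR-877-5p (0.816) and miR-140-3p (0.740), none of which stayed among the first 3 on the median of ratios scale, where miR-216a-5p led (0.734). For miR-146b-5p they were miR-143-3p (0.917), an abundant miRNA of fibroblasts and smooth muscle, miR-582-3p (0.864) and miR-192-5p (0.827), and miR-143-3p also came first over 17 libraries (0.909) and on the median of ratios scale (0.965).

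A list of 24 other miRNAs tied to NF-κB and Toll-like receptor signaling, or to inflammation of endothelium and macrophages, gives the setting of the members. The table held 23 of them and 20 were tested. In SUN1L cells on 308 kPa against 1 kPa, 1 of the 20 was called in the fit of all libraries: miR-212-3p, which is made with miR-132, was higher by 2.15 ± 0.57 (adjusted p = 0.0461). Without blebbistatin library 3, 16 of 20 were called higher and none lower, where 322 of all 480 tested were higher, with a list median of 1.73 against 1.34 over all tested miRNAs. On the median of ratios scale without that library the count was 9 higher and 4 lower, with a list median of 0.42 against 0.09. Of all 480 tested, 137 were higher and 106 lower there. The 4 lower ones, named here after their values were seen, were miR-10a-5p (-1.81 ± 0.28), miR-21a-5p (-1.57 ± 0.25), miR-147-3p (-0.96 ± 0.29) and miR-9-5p (-0.81 ± 0.21). The values that follow are those of the deposited scale without library 3, and all 4 miRNAs were also called higher with median of ratios scaling. miR-125b-5p, which targets Tnf mRNA, averaged 192937 ± 27701 on 308 kPa and 32875 ± 16018 on 1 kPa (SD) and was higher by 2.70 ± 0.32 (adjusted p = 4.8e-06). miR-221-3p, which represses the cell cycle inhibitor Cdkn1b, was higher by 3.66 ± 0.44 and miR-31-5p by 3.14 ± 0.40 (adjusted p = 4.8e-06 and 6.35e-06). The second member of the miR-125 family on the list, miR-125a-5p, was higher by 2.63 ± 0.35 (adjusted p = 9.6e-06). In KDEL cells none of the 20 was called in the fit of all libraries, where miR-222-3p and miR-301a-3p had the lowest p (log2 fold change 0.81 ± 0.46 and 1.44 ± 1.22, adjusted p = 0.769 for both). Without library 3 in the fit, 3 were called higher in KDEL cells: miR-125b-5p (1.15 ± 0.32, adjusted p = 0.0423), miR-301a-3p (1.44 ± 0.41, adjusted p = 0.0429) and the hypoxia-induced miR-210-3p (1.63 ± 0.47, adjusted p = 0.0451), where 7.29% of all tested miRNAs were called, with a list median of 0.54, as over all tested miRNAs. With median of ratios scaling in addition none of these 3 was called (adjusted p = 0.1005, 0.0959 and 0.0911 in that order).

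**Figure D4:**
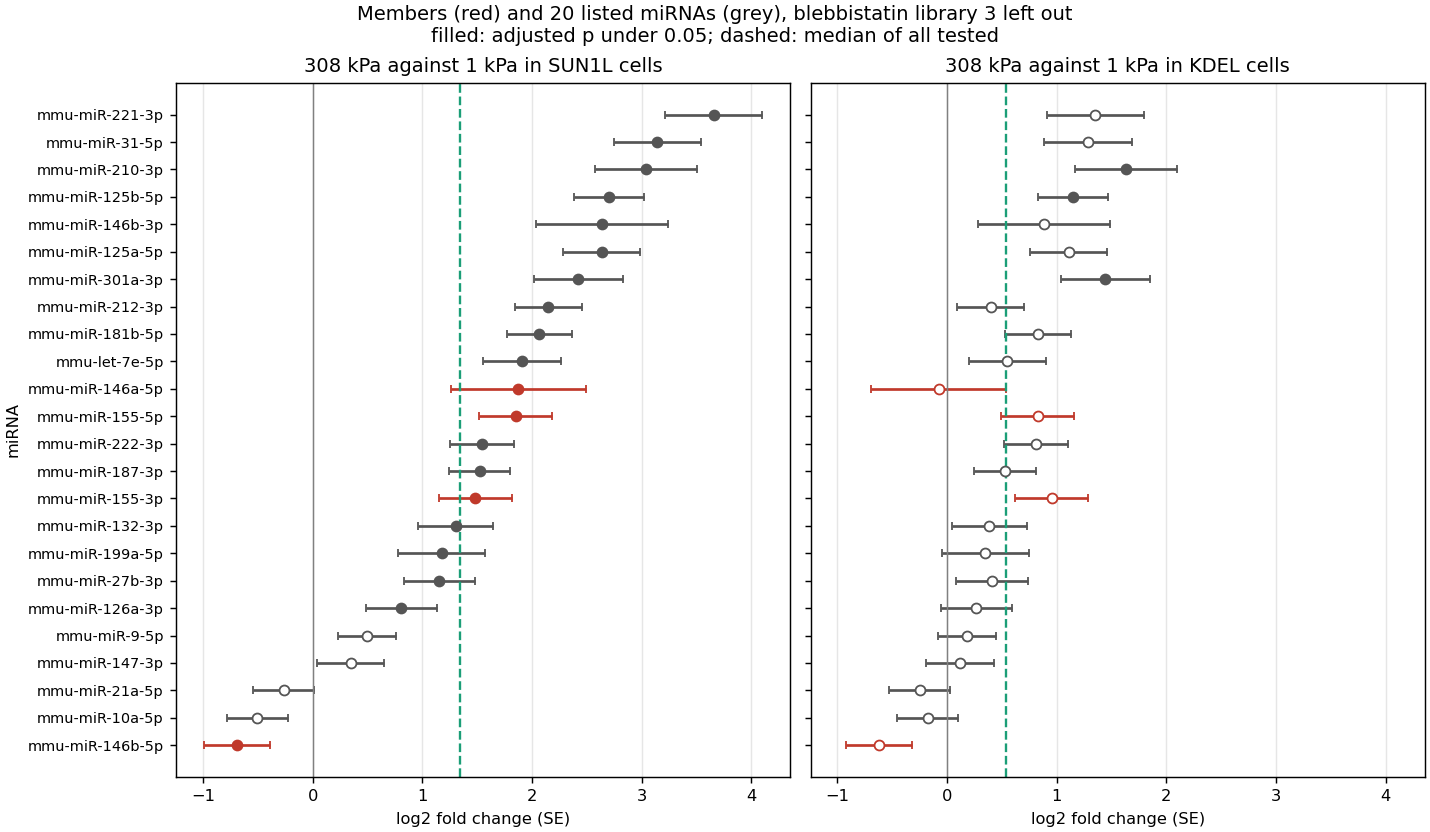
Log2 fold changes (± SE) on 308 kPa against 1 kPa in SUN1L cells (left) and KDEL cells (right) for the 4 members (red) and 20 listed miRNAs (grey), with blebbistatin library 3 left out, filled symbols for an adjusted p under 0.05 and the median of all tested miRNAs as a dashed line. On the deposited scale shown, in SUN1L cells 16 of the 20 are called higher and miR-146b-5p has the lowest value of all 24, and in KDEL cells 3 are called.

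Between the lines on 1 kPa none of the 20 was called in the fit of all libraries, with a list median of -0.98 against -0.68 over all tested miRNAs, and miR-212-3p (-1.68 ± 0.57, adjusted p = 0.214) and let-7e-5p (-1.23 ± 0.59, adjusted p = 0.431) had the lowest p. Without blebbistatin library 3, 10 of 20 were called lower in SUN1L cells and none higher, where 179 of all 480 tested were lower and 32 higher. miR-212-3p averaged 3.90 ± 0.31 in SUN1L and 14.7 ± 2.00 in KDEL cells and differed by -1.68 ± 0.31 (adjusted p = 0.000579), and miR-31-5p, miR-221-3p and miR-210-3p differed by -1.87 ± 0.40, -2.08 ± 0.44 and -2.04 ± 0.47 (adjusted p = 0.00162, 0.00162 and 0.00226). On the median of ratios scale without that library 2 (miR-10a-5p and miR-21a-5p, by 1.12 ± 0.28 and 0.77 ± 0.25, named after their values were seen) were called higher and 7 lower, so the one-sided count belongs to the deposited scale. Of all 480 tested, 85 were called higher and 100 lower on the median of ratios scale. On 308 kPa none of the 20 was called between the lines with or without the library, and the lowest p in the fit of all libraries were those of miR-222-3p and miR-9-5p (0.30 ± 0.46 and -0.27 ± 0.53, adjusted p = 1.00 for both). The interaction called none, with miR-212-3p at 1.75 ± 0.81 (adjusted p = 0.783, and 0.0528 without library 3) and let-7e-5p at 1.36 ± 0.83 (adjusted p = 0.783). None was called with either inhibitor: with blebbistatin miR-21a-5p, the most abundant miRNA of the table, had a log2 fold change of -1.09 ± 0.34 (adjusted p = 0.348) and miR-9-5p -1.22 ± 0.53 (adjusted p = 0.348), and with Y27632 miR-27b-3p had 0.99 ± 0.67 and miR-132-3p 0.76 ± 0.68 (adjusted p = 0.943 for both). These values are from the fit of all libraries. With blebbistatin the list median in that fit was -1.20, against -0.92 over all tested miRNAs. Without library 3 the list median was 0.26, against 0.07.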

How the data were processed

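Total RNA was made into small RNA libraries and sequenced, with 18 libraries in 6 groups. The authors ran FastQC on the reads, then trimmed, filtered and counted them in AvadisNGS, keeping reads that start where a miRBase mature miRNA starts. The authors deposited a normalized signal with a floor of 1. How each library was scaled is not given in the sources used here. In all libraries 100% of the low values above the floor were whole multiples of 1 step (tolerance 0.01), taken as 1 read, and high values were not checked. A value of 1 can hide 1 read in 8 libraries whose step is under 1. Depth limits precision for scarce miRNAs.

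The 2035 entries hold 1900 mature names, since 77 names have several genomic copies (212 entries), of which 1 was kept per name. limma (version 3.58.1, R 4.3.3, with an intensity trend) was fitted to log2(value + 1) of 481 miRNAs that reached 10 in 3 or more libraries (480 without blebbistatin library 3), with Benjamini-Hochberg adjustment over all of them and calls at an adjusted p under 0.05. Fold changes on this scale understate changes of scarce miRNAs. Errors of fold changes are SE and those of means SD. Alternatives were 2 other scalings, a pseudocount of 10, no filter, a filter at 50, array weights, only the groups compared, each library left out, and a covariate for runs of consecutive library numbers in the titles. The script was tested on simulated data.

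The members and lists were chosen with earlier results of these data known. Named miRNAs are the members, the 3 most similar profiles per member and, of the list of 24, those called (up to 4 of lowest p) or the 2 of lowest p. The labels name mm9, but the deposited positions are those of GRCm38 and are given in that build.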

Additional observations from a re-analysis of the deposited data

How the results depend on the processing

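No member was called in the fit of all 18 libraries, and counts of called members (of 4) changed as follows. For SUN1L against KDEL on 1 kPa the count was 1 without blebbistatin library 3 with median of ratios or quantile scaling. This was miR-146b-5p, called higher, beside 185 and 179 of 480 tested miRNAs called. In the 12 untreated libraries with a covariate for runs of library numbers it was miR-155-5p, called lower (233 of 459 called). With median of ratios scaling in addition it was miR-146b-5p, called higher (216 of 459). On 308 kPa it was 1 (miR-146a-5p, called higher) with array weights (53 of 481 called) and with only the groups compared (22 of 444). The same held with the run covariate on either scale (27 and 32 of 459). For 308 kPa against 1 kPa in KDEL cells it was 3 with array weights (226 of 481 called) and 2 with only the groups compared (137 of 411). Without blebbistatin library 3 it was 1 with either scaling (miR-146b-5p, called lower, beside 13 and 11 of 480 called). With the covariate it was 1 on either scale, but not the same member. miR-155-3p was called higher on the deposited scale (96 of 459), and miR-146b-5p lower on the median of ratios scale (42 of 459). In SUN1L cells it was 1 with quantile scaling, with (33 of 481 called) or without (255 of 480) blebbistatin library 3. It was 4 with array weights (313 of 481) or the covariate (330 of 459). With only the groups compared (252 of 431) or the 12 untreated libraries (313 of 459) it was 3. With median of ratios scaling it was 2, without library 3 (243 of 480) or with the covariate (281 of 459). The interaction gave 1 with the covariate, where 68 of 459 were called, and 0 with median of ratios scaling in addition. With array weights blebbistatin gave 2 (23 of 481 called) and Y27632 1 (201 of 481). Leaving out 1 library gave 0 to 1 (SUN1L against KDEL on 1 kPa), 0 to 4 (substrate in SUN1L cells), 0 to 1 (blebbistatin) and 0 in the other comparisons. The upper ends stood beside 211 of 480, 335 of 480 and 1 of 478 tested miRNAs called, in that order. The quantile scaling without library 3 and the covariate with median of ratios scaling were chosen after seeing the data.

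Signs reversed near 0 or with blebbistatin library 3. For SUN1L against KDEL on 1 kPa miR-146a-5p turned to 0.28 (median of ratios), 0.31 (quantile), 0.070 (array weights), 0.31 and 0.30 (median of ratios and quantile without library 3), 0.32 (covariate with median of ratios) and, with 1 library left out, ranged between -0.80 and 0.073 (positive without KDEL library 1). On 308 kPa miR-155-5p ranged between -0.012 and 0.29 with 1 library left out (negative without KDEL library 1). In KDEL cells the substrate difference of miR-146a-5p ranged between -0.46 and 0.36 with 1 library left out (positive without KDEL library 1 on 1 kPa). The interaction of miR-155-3p turned to -0.21 (median of ratios), -0.062 (quantile), -0.22 and -0.063 (the same without library 3) and -0.25 (covariate with median of ratios), and that of miR-146b-5p ranged between -0.23 and 0.24 with 1 library left out. With blebbistatin miR-155-5p turned to 0.13 (array weights), 0.22 (without library 3), 0.20 and 0.26 (with median of ratios or quantile in addition), miR-155-3p to 0.00923, 0.085, 0.064 and 0.070 in that order, and miR-146b-5p to 0.089 (median of ratios). With 1 library left out miR-155-5p ranged between -1.82 and 0.22 and miR-155-3p between -2.15 and 0.085. With Y27632 miR-155-5p turned to -0.091 (median of ratios), -0.19 (quantile), -0.12 and -0.18 (the same without library 3), and miR-146b-5p to -0.25, -0.34, -0.27 and -0.34 in that order and between -0.014 and 0.39 with 1 library left out (negative without Y27632 library 1). The cause was not tested beyond these settings.

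No paired analysis was possible because the labels carry no replicate numbers, and the covariate above groups libraries only by runs of consecutive numbers in their titles, which no source says were prepared together. The planned count tests edgeR and DESeq2 were not run, since the floor of 1 hides low reads. Depth limits miR-146a-5p most, with 0 to 299 reads a library.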

Other observations

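The arms of the miR-146b hairpin differed in opposite directions between substrates in SUN1L cells. miR-146b-3p, the scarce arm, had 48.9, 34.02 and 56.7 in SUN1L cells on 308 kPa, against 12.4, 1 and 14.7 on 1 kPa, with no overlap, where miR-146b-5p was lower on 308 kPa than on 1 kPa. Its log2 fold change was 2.64 ± 0.96 (limma, adjusted p = 0.0865) with all libraries, 2.64 ± 0.60 (adjusted p = 0.000945) without blebbistatin library 3, and 1.56 ± 0.53 (adjusted p = 0.0196) on the median of ratios scale without that library. In KDEL cells miR-146b-3p had 55.9, 28.6 and 47.6 on 308 kPa, against 26.8, 10.6 and 39.3 on 1 kPa, which overlapped (0.88 ± 0.60, adjusted p = 0.311, without blebbistatin library 3). The comparison of the arms was chosen after their values were seen, and the difference between the arms was not tested. For miR-155 both arms were higher on 308 kPa in the same comparison, without overlap on the deposited scale.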
